A study of Homo sapiens with 2 samples.

Results

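The mRNA of beta-catenin itself, together with 9 further mRNAs of the Wnt pathway, was described in RNA recovered with a catenin immunoprecipitation (IP) from MDA-MB-231. This is an established human breast cancer cell line of mesenchymal, triple-negative type. The 10 genes were taken by symbol from the deposited list of enriched regions (peaks), which held 1658 gene symbols. They comprise CTNNB1, APC, GSK3B, CSNK1A1, FBXW11, TCF7L2, BCL9L, TLE3, CCND1 and SOX9. The series has 2 samples, titled with B-catenin and with B-input, and the labels name no treatment. Each is 1 library, and the labels name neither an antibody nor a control IP. The peak list belongs to the IP library, so every value below rests on that 1 library, with no replicate error, and its folds are set against a background that the labels and the file do not name. RNA abundance in the input was not analysed here, and more RNA in the cells and more RNA in the IP cannot be told apart from these counts.

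In canonical Wnt signalling, beta-catenin is held low by a cytoplasmic destruction complex, in which the scaffold APC and the kinases CK1 alpha and GSK3 beta mark it for a ubiquitin ligase. When Wnt ligands reach their receptors, the complex is inhibited, and beta-catenin enters the nucleus and binds TCF/LEF factors. BCL9 proteins then assist activation, whereas TLE proteins repress the same targets in its absence. In epithelial cells beta-catenin also links cadherins to alpha-catenin at cell junctions.

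CTNNB1 stood far apart from the other 9 mRNAs. It carried 3078 tags, which made up 90.3% of the 3409 tags on the 10 genes, or 9.30 times the other 9 together. Per length of peak it had 1087 tags per kb, against 21.4 to 58.7 tags per kb for the other 9. Of those 9, 7 had fewer tags than the median gene and 6 fell below the median density, while CCND1 and CSNK1A1 lay above the upper quartile of tags. Tags are the whole-number counts of sequence tags in a peak as deposited, and the fold given below is the enrichment that their peak caller assigned to a peak. When a gene was listed on several transcripts, the transcript with the most tags was used. Intervals beside tags are exact Poisson intervals at 95% and cover counting error only.

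**Figure D1:**
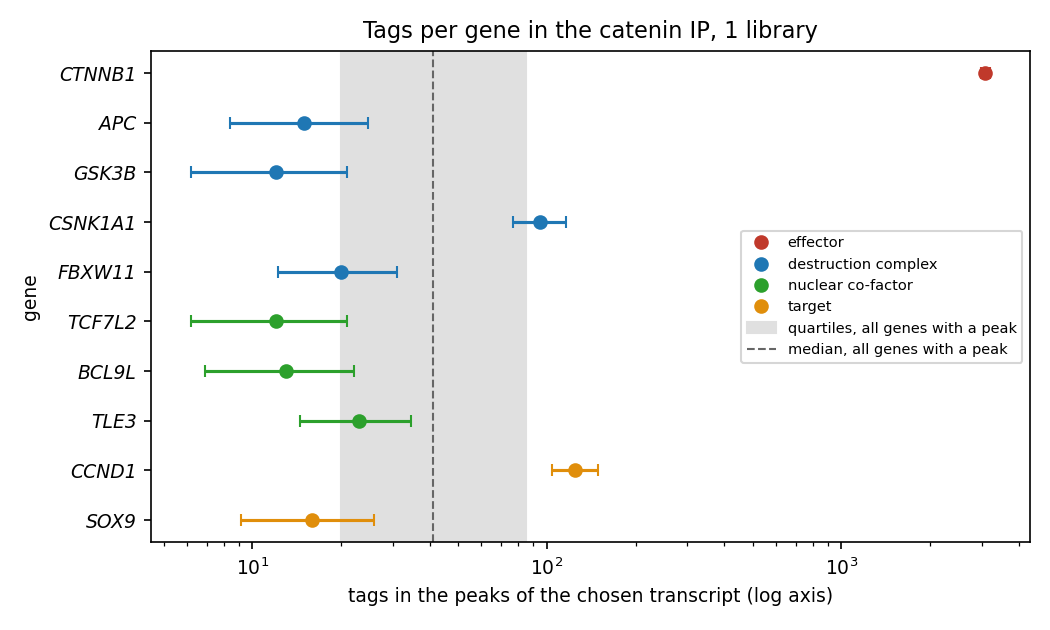
Tags in the peaks of the chosen transcript (log axis) for the 10 genes in 1 IP library, with exact 95% Poisson intervals, grouped by role. The dashed line is the median over all 1658 genes, 41 tags, and the grey band spans the quartiles, 20 to 85 tags. CTNNB1 lies at 3078 tags, CCND1 and CSNK1A1 lie above the band, and the other 7 lie at 12 to 23 tags.

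The CTNNB1 peak was the densest of the list. It ran without a break from nt 195 to nt 3026 of ENST00000349496, a length of 2832 nt, with the summit at nt 1970. Positions are counted from 1 along the transcript. The next genes by density were NCL, which encodes nucleolin, at 363 tags per kb, EEF1A1, a translation elongation factor, at 239 and MYH9, a nonmuscle myosin heavy chain, at 220. CTNNB1 was thus 2.996 times as dense as NCL and 4.54 times as dense as EEF1A1. The median over all genes was 29.8 tags per kb.

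Genes whose peaks covered nearly the same length showed how far this count departed from the usual. DIDO1 with 3 peaks and PDLIM5 with 2 peaks, each totalling 2827 nt, carried 85 and 76 tags. ITGA2, an integrin subunit, and LRRFIP1 had 2825 nt each with 59 and 243 tags, and HIF1A, the hypoxia-inducible factor, had 2839 nt with 172 tags. CTNNB1 thus held 12.7 to 52.2 times the tags of these 5 genes. The 52.2 came from ITGA2, whose length was split over 3 peaks. Against LRRFIP1 and HIF1A, which had a single peak like CTNNB1, the ratios were 12.7 and 17.9. By tags without regard to length, the 5 genes after CTNNB1 were NBPF20 (1516), MYH9 (1387), MAP1B (1313), AHNAK (1295) and NBPF10 (1052). Their peaks were far longer, from 6312 nt in MYH9 to 18378 nt in AHNAK. NBPF genes share repeated sequence with each other, so their own counts are uncertain.

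The fold of CTNNB1 was 8.99, against a median fold of 7.56 over all genes, and so did not share the extreme place of its tag count. Within 0.25 of this fold lay 16 other genes, which had 23 to 433 tags and a median of 74.5. Among the other genes with at least 500 tags, the closest folds were 11.94 for NCL and 5.37 for EEF1A1. For a ratio of tags to fold, the tags in all peaks of a gene were divided by the fold of its highest peak. This ratio came to 342 in CTNNB1, the highest of all 1658 genes. Next were EEF1A1 at 103, HNRNPA1 at 88.7 and HSPA5 at 88.6. The median ratio was 4.75, and the other 9 Wnt pathway genes ranged from 1.88 to 15.4. A large ratio means many tags for the enrichment assigned to them. The score of CTNNB1, another column of the authors' whose name was lost in the file, was 3100. Exactly this value was given to 12 peaks on the chosen transcripts, 1 per gene, and the folds of the other 11 genes started at 27.32. The shared score therefore does not show that CTNNB1 was enriched equally with these 11.

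**Figure D2:**
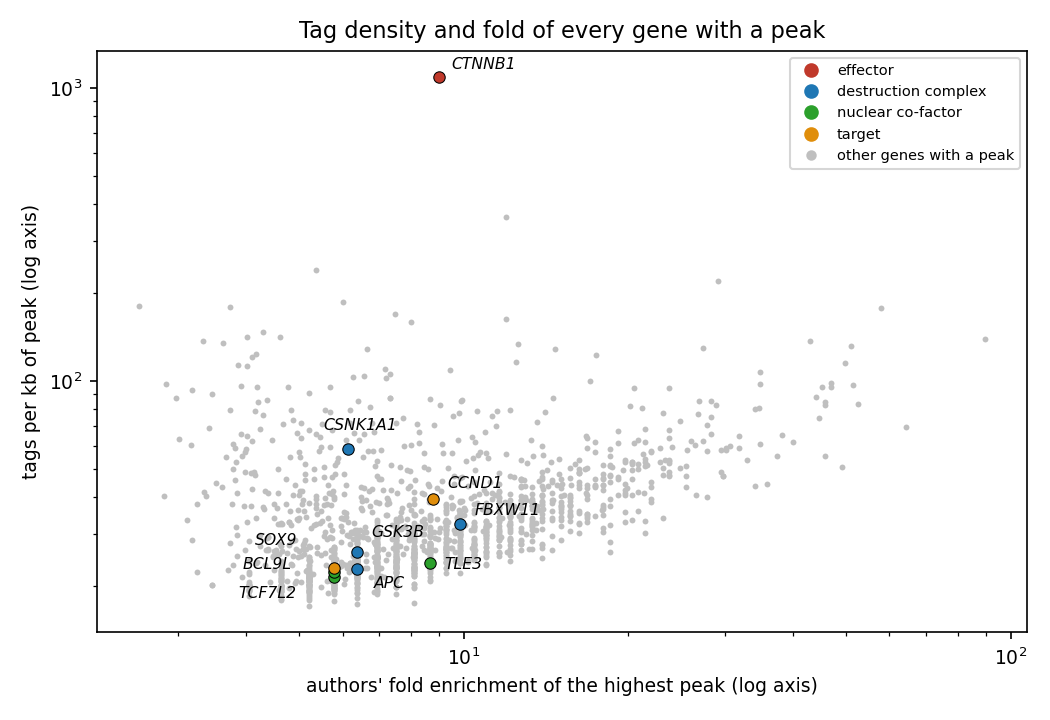
Tags per kb of peak against the authors' fold of the highest peak, both on log axes, for each of the 1658 genes in the IP library, with the 10 Wnt pathway genes coloured by role. CTNNB1 lies alone at 1087 tags per kb with a fold of 8.99, while the other 9 lie within the grey cloud at folds of 5.79 to 9.84.

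The 3 transcripts listed for CTNNB1 held nearly the same tags, 3078, 3077 and 3078. On ENST00000396183 the peak covered nt 200 to 3112 with its summit at nt 1975, and on ENST00000396185 it covered nt 129 to 2794 with its summit at nt 1904. In all 3 the summit lay at position 1776 counted from the start of the peak. The distance from the summit to the downstream end differed, at 1056, 1137 and 890 nt. The transcripts thus differed at the downstream end of the peak, while the upstream part had one length.

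The destruction complex was represented by 4 genes with very different counts. CSNK1A1, which encodes the CK1 alpha kinase that primes beta-catenin for GSK3 beta, had 95 tags (interval 76.9 to 116) at a fold of 6.15 and 58.7 tags per kb. This was the second density of the 10 genes, and it ranked 170 of 1658. Its peak covered nt 153 to 1770 of ENST00000504676, with the summit near the upstream end at nt 369. The other transcript listed, ENST00000261798, had a different peak at nt 3364 to 4031 with 18 tags (10.7 to 28.4) and a fold of 5.87. The transcripts differed 5.28-fold in tags, a ratio reached by 63 of the 1064 genes with several transcripts, whose median ratio was 1.13. CSNK1A1 has a close intronless copy in the genome, CSNK1A1L, and whether reads were shared between them is not known.

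The scaffold gene APC had 15 tags (8.40 to 24.7) in 1 peak at nt 3025 to 3684 of ENST00000257430, at a fold of 6.37 and 22.7 tags per kb. Its peak on ENST00000508376 was the same in length, summit offset and tags, and lay 101 nt further downstream. GSK3B, the kinase that phosphorylates beta-catenin after CK1 alpha, had 12 tags (6.20 to 21.0) at nt 692 to 1151 of ENST00000264235, also at a fold of 6.37. FBXW11, a substrate adaptor of the SCF ubiquitin ligase, had the highest fold of the 10 genes, 9.84, on 20 tags (12.2 to 30.9). No error is given for a fold, so this rank does not show a higher enrichment than in the other genes. The intervals of APC, GSK3B and FBXW11 overlap, so their tag counts were not distinguishable from each other, whereas that of CSNK1A1 lay above all 3.

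The FBXW11 peak appeared on 3 transcripts with the same 614 nt length, starting at nt 203, 295 and 489. The file labelled it as 3' untranslated on 2 of them and as 3' untranslated plus coding on ENST00000393802. BCL9L and TLE3 likewise had peaks of identical length, summit offset and tags under different region labels. This held for 3 of the 5 genes here that had such a repeated peak, and for 269 of 840 genes (32.0%) over the list. Region labels were therefore not used to place the peaks in coding or untranslated sequence.

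Of the 3 nuclear co-factors among the 10 genes, TLE3, a Groucho-family co-repressor, had 23 tags (14.6 to 34.5) at a fold of 8.68 on ENST00000317509. BCL9L, a co-activator that joins beta-catenin to Pygopus proteins, had 13 tags (6.92 to 22.2), and TCF7L2, the DNA-binding partner of beta-catenin also called TCF4, had 12 (6.20 to 21.0). Both stood at a fold of 5.79. The 3 intervals overlap, so the co-factors could not be ordered by tags at this depth. In tags per kb they lay within 21.4 to 23.9, all below the median gene.

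The co-factors differed more in how many transcripts carried the peak. TLE3 was listed on 14 transcripts, a number exceeded by 3 of the 1658 genes, against a median of 2. Of these, 11 had the summit at position 493 of the peak, with 20 to 23 tags and folds of 8.13 to 8.68. On 2 transcripts the summit lay at position 229, with 19 and 22 tags at a fold of 8.68. On ENST00000627388 it lay at position 298 of a 489 nt peak with 12 tags and a fold of 6.37. TCF7L2 was listed on 7 transcripts, and in each the peak had 560 nt, 12 tags and the summit at position 383. Only its place along the transcript changed, with starts from nt 1025 to nt 1359. BCL9L had the same 582 nt peak at nt 938 of ENST00000334801 and at nt 318 of ENST00000526143. Rows of a gene repeated on other transcripts were not added up.

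**Figure D3:**
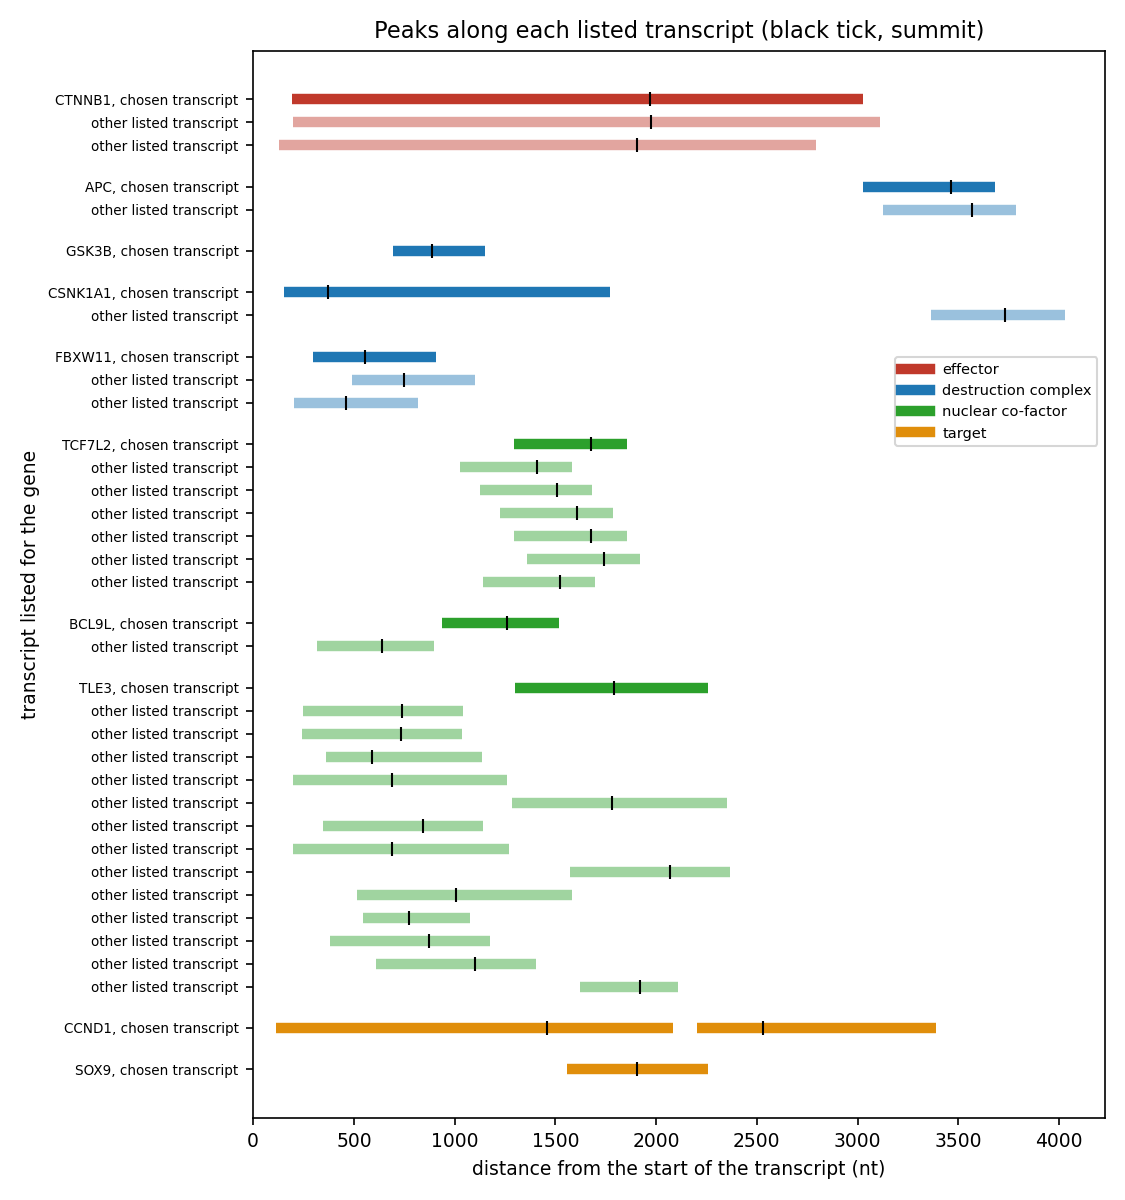
Each row is a transcript listed for one of the 10 genes, the x axis is the distance from the start of that transcript in nt, bars are peaks, and black ticks are summits. Dark bars mark the transcript chosen for a gene and pale bars the others. TCF7L2 and FBXW11 repeat 1 peak at shifted positions, CSNK1A1 has unlike peaks on its 2 transcripts, and CCND1 has 2 peaks on its only transcript.

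Both target genes had a single listed transcript. CCND1, which encodes the G1 cyclin D1, was the only one of the 10 with more than 1 peak, and had 125 tags in all (104 to 149). The upstream peak, nt 114 to 2083 of ENST00000227507, held 64 tags (49.3 to 81.7) at a fold of 3.12, a score of 31.9 and 32.5 tags per kb. The downstream peak, nt 2203 to 3389, held 61 tags (46.7 to 78.4) at a fold of 8.79, a score of 115 and 51.4 tags per kb. The peaks were 119 nt apart and not distinguishable in tags, yet their folds differed 2.82-fold. Of the 357 genes with exactly 2 peaks, 35 had folds at least this unequal, and the median ratio was 1.48. SOX9, a transcription factor of progenitor cells, had 16 tags (9.15 to 26.0) at nt 1560 to 2258 of ENST00000245479, at a fold of 5.79.

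By the highest peak of each gene, the folds of the 10 genes ran from 5.79 to 9.84, within a list that ran from 2.55 to 89.72. Their median fold was 6.37, against 7.56 over all genes, and 6 of the 10 lay below that value. In 7 of them every peak had a fold on a whole multiple of 0.5788, to within 0.0051, and 60.9% of all genes shared this property. FBXW11 stood at 17 such steps, TLE3 at 15, APC and GSK3B at 11, and BCL9L, TCF7L2 and SOX9 at 10. These 7 were also the genes with fewer than 25 tags, a class in which 439 of 545 genes over the list had every peak on the steps. The folds of CTNNB1, CCND1 and CSNK1A1 lay off the steps. Of the 21 genes with at least 500 tags, 13 had every peak on the steps, a lower share than under 25 tags. Folds off the steps were thus not found in every gene with a high count. Whether the share depends on tags or on the number of peaks was not tested. Folds on the steps can take only stepwise values, so the ties between APC and GSK3B and among BCL9L, TCF7L2 and SOX9 do not show equal enrichment.

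By the authors' score, 5 of the 10 genes had a peak of at least 50, against 71.5% of all genes: CTNNB1, CCND1, FBXW11, CSNK1A1 and TLE3. A score of at least 100 was reached by 2 of the 10, CTNNB1 and CCND1, against 40.4% of all genes. A fold of at least 4 was reached by all 10, against 97.6% of all genes. The score of TCF7L2, 32.7, lay close to the minimum of the list, 30. Scores mostly rose with tags among the 10 genes, but not in every case. FBXW11 with 20 tags reached 75.1, whereas CSNK1A1 with 95 tags reached 64.8.

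The rest of the pathway was examined in lists of 131 genes sorted by role, which include the 10 genes and were chosen with earlier results known. A peak was listed for 21 of them (16.0%), against 8.11% of 20052 protein-coding genes. Without the 10 genes, 11 of 121 remained (9.09%). The 10 genes were taken from the peak list, so counting them raises the share. Leaving them out removes only genes with a peak and lowers it. Neither share is therefore a fair estimate to set against the 8.11%. Each count by role below is to be read against the same 8.11% and with this limit. Of the destruction complex and its regulators, 3 of 18 further genes had a peak. USP7, a deubiquitinase, had 87 tags at a fold of 16.21, CUL1, the cullin scaffold of the SCF ligase, 34 tags at 6.61, and TNKS2, a tankyrase that acts on axin, 17 tags at 4.63.

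Of 21 further nuclear co-factors, 7 had a peak, against 8.11% of protein-coding genes. That 8.11% counts genes whether or not they are expressed in these cells, and expression and length were not matched. Several of the 7 had higher folds than any of the 10 genes. CHD8, a chromatin remodeller known to bind beta-catenin, had 348 tags at a fold of 39.94, and the acetyltransferase gene EP300 had 256 tags at 35.89. SMARCA4, the ATPase of the SWI/SNF remodeller, had 133 tags at 34.6 and the highest density of the 7, 81.0 tags per kb. CREBBP, HIPK2, MED12 and CDC73 had folds of 11.58, 9.84, 8.10 and 5.33, with 33 to 66 tags. These 7 are not specific to Wnt signalling.

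Few genes upstream of the destruction complex were listed, to be read beside the share of 8.11% over all protein-coding genes. Whether they were fewer than this share was not tested. None of 25 genes for Wnt and R-spondin ligands and their secretion had a peak, and none of 14 for secreted inhibitors and their partners did. Of 23 genes for receptors and Dishevelled proteins only ROR1, a receptor for WNT5A, had one, with 13 tags (6.92 to 22.2) at a fold of 4.63. Beyond CCND1 and SOX9, none of 28 further target genes had a peak, AXIN2 and MYC included. CCND1 and SOX9 were chosen as the target genes with a peak, so this count follows from the choice. The list holds only RNAs past the authors' threshold, so absence does not show that an RNA was not bound or not expressed. Of 7 genes that mark mesenchymal basal cells FN1 and EGFR had a peak, and none of 7 luminal and 4 blood markers did. Against the same 8.11% these lists are too short to check the cell type, and 5 of the mesenchymal markers had no peak either.

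**Figure D4:**
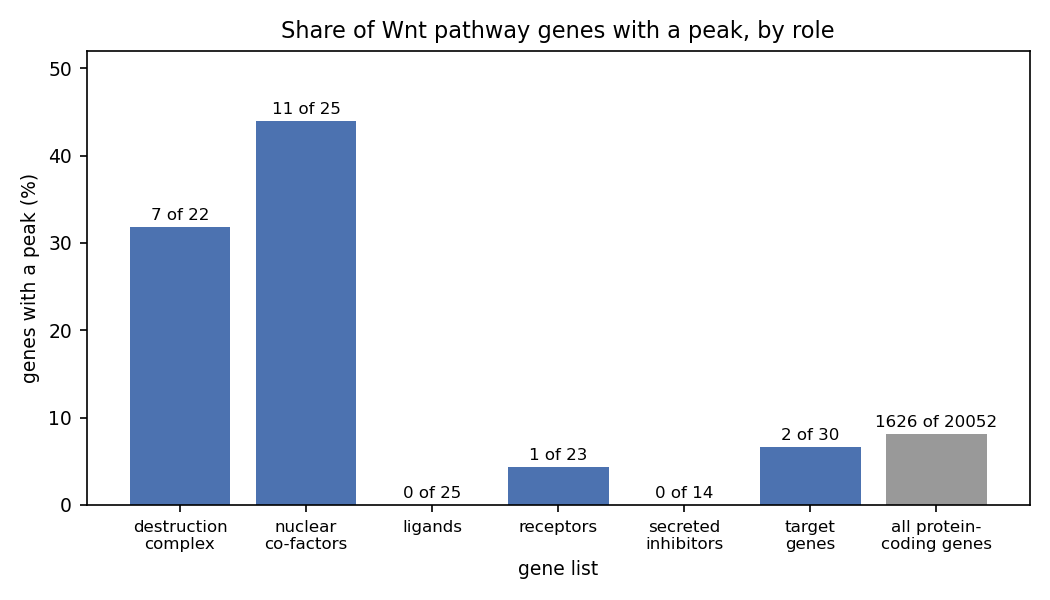
Share of genes with a peak (%) in each list of Wnt pathway genes by role and, at the right, among all protein-coding genes of the RefSeq table, with counts above the bars. The nuclear co-factors (11 of 25) and the destruction complex (7 of 22) include 8 of the 10 genes described here. The 10 genes were taken from the peak list, so each has a peak by choice, which raises these bars. Without them the counts are 7 of 21 and 3 of 18, and 0 of 28 for the target genes. Leaving them out removes only genes with a peak, which lowers these shares. The 0 of 28 follows from taking the target genes with a peak among the 10. No ligand or secreted inhibitor had a peak.

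The pathway annotation that the authors joined to the transcripts placed 24 genes with a peak in Wnt signalling, and 7 of the 10 genes were among them. TLE3, BCL9L and SOX9 were not. The 17 others had a median of 45 tags and a median fold of 7.52, against 41 and 7.56 over all genes. Besides CHD8 and EP300, they included PRKCA, a protein kinase C (190 tags, fold 8.10), and TBL1XR1, a co-regulator known to bind beta-catenin (112 tags, fold 8.63). Casein kinase 2 contributed CSNK2A1, CSNK2A3 and CSNK2A2 with 84, 45 and 40 tags, of which CSNK2A3 is a near-identical copy of CSNK2A1. Any pathway was annotated for 8 of the 10 genes and for 601 of the 1658. Other annotations shared by at least 5 of the 10 were Hippo signalling (6 of its 25 genes with a peak), colorectal and endometrial cancer (5 of 11 each) and pathways in cancer (5 of 53). In the adherens junction annotation 2 of the 10, CTNNB1 and TCF7L2, stood among 27 genes. Since the 10 genes were taken as Wnt genes, such overlaps follow from the choice and are given as a description.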

How the data were processed

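Per the labels' protocols, phenol-alcohol was used to extract the RNA of the catenin IP, which was then sheared to some 300 to 500 bp. The submitters' processing notes name hg18. The sources used here give no aligner, peak caller, annotation or background library. The deposited file of the IP library lists peaks along Ensembl transcripts: tag counts, as deposited by the authors, a fold enrichment ratio over a background not stated, per the file headers, and a score, deposited by the authors under a lost name. The depth of the library is unknown. The summit was read as an offset counted from 1 at the start of the peak, since it never exceeded the length.

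For each symbol the transcript with the highest sum of tags was kept (ties by lowest identifier), which left 2440 of 6195 peaks. Tags per kb are tags over summed peak length. No test across samples was possible with 1 library per group. The step of the folds was found by a grid search and tested on simulated data. RefSeq symbols (GRCh38.p14) served for names only. Described were the 10 genes, every gene of the role lists with a peak, the nearest genes to CTNNB1 by tags, density, length and fold, and, chosen after the values were seen, by tags over fold. Of the 17 other genes in the authors' Wnt annotation, those named were also chosen after their values were seen. Values of some single genes that these rules would name are not reported here. The genes and lists were chosen with earlier results of these data known. No sequence is printed, as transcript sequences were not used here. Python 3.11.15, pandas 2.3.3, SciPy 1.17.1 and matplotlib 3.10.9 were used.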

Additional observations from a re-analysis of the deposited data

How the results depend on the processing

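A minimum score of 50 left 5 of the 10 genes with a median fold of 8.79, and a minimum of 100 left 2 genes with a median of 8.89 and 7 of the 131 role-list genes, by construction of the stricter threshold. A tag-weighted mean fold gave a median of 6.26 in place of 6.37. CTNNB1 ranked 1 by tags and by tags per kb under both score minimums, a minimum fold of 4 and other choices of transcript, with 3077 or 3078 tags. Between transcripts of the 10 genes, 1 of 121 pairs of peaks had identical start and end, and 72 overlapped by at least 50%. In 43 pairs the length and summit offset were the same. TLE3 alone gave 91 of the pairs. Positions were counted along each transcript, and transcripts can start at different places, so overlap does not show shared sequence. The repeated 582 nt peak of BCL9L counted as not overlapping. The criterion of same length and summit offset was added once the values were known, that is, chosen after seeing the data on isoforms. No paired analysis was possible because a single library stands for either group. Depth limits the 7 genes with 12 to 23 tags, whose intervals overlap.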
